A study of Mus musculus with 6 samples.

Results

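The simple keratins Krt7, Krt8, Krt18 and Krt19, the mesothelial surface genes Upk3b and Msln, and the epithelial adhesion and junction genes Epcam and Cldn4 are described here across 3 kinds of cultured mouse cells. These 8 genes were picked by name, with their levels in these libraries already known, and were found among the 18305 genes of the deposited tables by their NCBI gene numbers. All 8 had reads. Their levels and differences are therefore descriptions, and no p-value is given for any of them.

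RNA was sequenced from 6 libraries of cells of KM mice, 2 libraries in each group. CiLC are embryonic fibroblasts that had been passaged 3 to 5 times and were exposed to small molecules from 24 h after seeding, in a study of the conversion of fibroblasts to Leydig-like cells. The labels name neither the compounds nor the length of exposure. LC are cells prepared from testis and labelled as Leydig cells, which lie outside the seminiferous tubules and make androgen, at passage 0 to 1. MEF are the embryonic fibroblasts without the compounds, also at passage 3 to 5, from embryos of 12.5 or 13.5 days. Passage and source thus differ between LC and both other groups and cannot be told apart from cell type. Nothing in the labels tells whether replicate libraries derive from separate cultures, so the spread and the p-values below cover only the difference between these libraries, which may be technical.

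Keratins are intermediate filament proteins of epithelial cells. A filament is built from pairs of a type II keratin (here Krt7 and Krt8) and a type I keratin (here Krt18 and Krt19), and these simple keratins are typical of single-layered epithelia. Mesothelium, the lining of the body cavities and of the outer surface of organs including the testis, makes simple keratins together with mesothelin (Msln) and uroplakin 3B (Upk3b), and keeps the mesenchymal filament vimentin. Most epithelia also carry the adhesion protein Epcam and claudins such as Cldn4 at their tight junctions, whereas resting mesothelium and fibroblasts are usually poor in both.

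RefSeq promoters of the build GRCm38.p6 were matched for 6 of the 8 genes, all but Krt19 and Msln. That build differs from the one the reads were aligned to, so the positions serve only to identify the sequence. The 250 bases before the start of 4 of these genes are shown because they belong to both partners of a keratin pair, a mesothelial gene and a gene of the opposite pattern. Krt8 and Krt18 lie next to each other on chromosome 15, with 2 annotated genes and 0 protein-coding genes between them. Capitals mark the motifs searched on both strands.
Krt8 promoter, chr15:102004343-102004592, minus strand: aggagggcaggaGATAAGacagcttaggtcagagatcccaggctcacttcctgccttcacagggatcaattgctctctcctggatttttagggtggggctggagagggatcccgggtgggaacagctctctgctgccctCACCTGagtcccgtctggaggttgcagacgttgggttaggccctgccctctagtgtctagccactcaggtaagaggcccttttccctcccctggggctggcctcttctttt
Krt18 promoter, chr15:102027966-102028215, plus strand: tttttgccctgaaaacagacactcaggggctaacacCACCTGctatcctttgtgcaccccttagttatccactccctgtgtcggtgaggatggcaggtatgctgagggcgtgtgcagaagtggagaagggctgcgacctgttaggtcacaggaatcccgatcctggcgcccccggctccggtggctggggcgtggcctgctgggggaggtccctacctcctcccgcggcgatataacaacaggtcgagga
Upk3b promoter, chr5:136038246-136038495, plus strand: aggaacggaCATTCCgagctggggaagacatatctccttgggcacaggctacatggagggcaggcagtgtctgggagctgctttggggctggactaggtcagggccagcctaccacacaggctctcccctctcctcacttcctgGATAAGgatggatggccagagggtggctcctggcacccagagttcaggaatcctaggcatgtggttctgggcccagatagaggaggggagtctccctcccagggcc
Cldn4 promoter, chr5:134946935-134947184, minus strand: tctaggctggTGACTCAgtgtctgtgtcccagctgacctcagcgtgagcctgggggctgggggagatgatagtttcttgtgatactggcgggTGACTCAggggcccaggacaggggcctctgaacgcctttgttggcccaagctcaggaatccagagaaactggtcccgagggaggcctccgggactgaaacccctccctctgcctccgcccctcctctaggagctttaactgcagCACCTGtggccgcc

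The capitals in the Krt8 and Krt18 promoters include CACCTG, the reverse complement of CAGGTG, which is the E-box bound by Snail and Zeb repressors. This E-box was in 5 of the 6 promoters, those of Krt7, Krt8, Krt18, Epcam and Cldn4, and in 17.2% of 32851 promoter windows of the same length. The genes that hold it include both expression patterns described below. The GATA motif GATAAG was in the Krt8 and Upk3b promoters and in 6.55% of all windows. The TEAD motif GGAATG, printed as CATTCC in Upk3b, was in 1 of the 6 promoters and 12.6% of windows. The AP-1 motif TGANTCA, where N is any base, was at 2 places in the Cldn4 promoter and in 6.75% of windows. The NR5A1 motif AAGGTCA and the TATA box TATAAA were in 0 of the 6 promoters, against 4.08% and 12.4% of windows. None of these motifs overlapped another in the windows shown. A match is a run of letters and not a shown binding site.

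The 8 genes took 2242 to 2413 reads of a CiLC library, 137 to 170 reads of an LC library and 207 to 233 reads of a MEF library, out of 18.4 to 18.9 M. Levels are given as reads per gene and as CPM, read counts scaled to library size, so a level can be compared between groups for a gene but not between genes of different length. Of the 8 genes, 6 were highest in both CiLC libraries and Epcam and Cldn4 in both LC libraries. In bulk RNA, fewer cells of a type and less RNA per cell cannot be told apart.

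Krt7 (NCBI gene 110310), a type II keratin of ducts and mesothelium, had 375 and 331 reads in CiLC, 1 and 0 reads in LC, and 35 and 23 reads in MEF. In CPM this was 19.1 and 16.8 in CiLC, 0.058 and 0 in LC, and 1.83 and 1.2 in MEF. The 3 groups do not overlap, and LC is nearly empty. Krt7 was 11.8-fold higher in CiLC than in MEF (log2 fold change 3.56 ± 0.17 SE). CiLC exceeded LC by a ratio of 614 (counting interval 109.8 to 24281), since LC held 1 read. The fitted log2 fold change, 8.96, was 11.41 without LC replicate 1 and 8.12 without LC replicate 2. The level in LC was 51.9-fold lower than in MEF, with an interval from 8.95 to 2083 and a fitted log2 fold change of -5.4 (-7.85 and -4.56 without the same libraries).

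Krt8 (gene 16691), the type II keratin that pairs with Krt18 in most simple epithelia, had 107 and 98 reads in CiLC, 1 and 2 reads in LC, and 1 and 4 reads in MEF. Both CiLC libraries stand clear of the other 4, and LC and MEF overlap. The mean was 5.21 ± 0.336 CPM in CiLC, 0.0879 ± 0.0422 CPM in LC and 0.13 ± 0.11 CPM in MEF (SD, n = 2 each). Krt8 was 39.9-fold higher in CiLC than in MEF, a log2 fold change of 5.25 ± 0.4 SE that was 4.6 without MEF replicate 1 and 6.46 without MEF replicate 2. Against LC the ratio was 59.4 (counting interval 20 to 290.5). Between LC and MEF the ratio, 1.49 lower in LC, had an interval from 0.29 to 9.6 that holds both directions, and the fitted log2 fold change of -0.54 became 0.67 without MEF replicate 2 and -1.2 without MEF replicate 1.

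Krt18 (gene 16668), the type I partner of Krt8, had 402 and 375 reads in CiLC, 25 and 22 reads in LC, and 17 and 17 reads in MEF. It kept a low level in every library, and the groups do not overlap. The mean was 19.7 ± 1.02 CPM in CiLC, 1.37 ± 0.109 CPM in LC and 0.888 ± 0.00445 CPM in MEF. That is 22.2-fold higher in CiLC than in MEF (log2 fold change 4.46 ± 0.16 SE) and 14.4-fold higher in CiLC than in LC (3.84 ± 0.15 SE). The step between LC and MEF was small, 1.55-fold higher in LC (0.62 ± 0.3 SE).

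Krt19 (gene 16669), a type I keratin of ducts and embryonic epithelia, had 71 and 69 reads in CiLC, 5 and 1 reads in LC, and 33 and 29 reads in MEF. MEF held more of it relative to CiLC than of the other 3 keratins. The fold of CiLC over MEF was 2.2 (log2 fold change 1.13 ± 0.26 SE), against 11.8 for Krt7, 39.9 for Krt8 and 22.2 for Krt18. Among 14581 genes ordered from the largest log2 fold change of CiLC over MEF, Krt8 stood at place 67, Krt18 at 90, Krt7 at 160 and Krt19 at 888. Krt19 was 20.3-fold higher in CiLC than in LC (4.29 ± 0.42 SE, 5.77 without LC replicate 1 and 3.59 without LC replicate 2). It was 9.24-fold lower in LC than in MEF (-3.16 ± 0.49 SE, -4.64 and -2.45 without the same libraries).

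**Figure D1:**
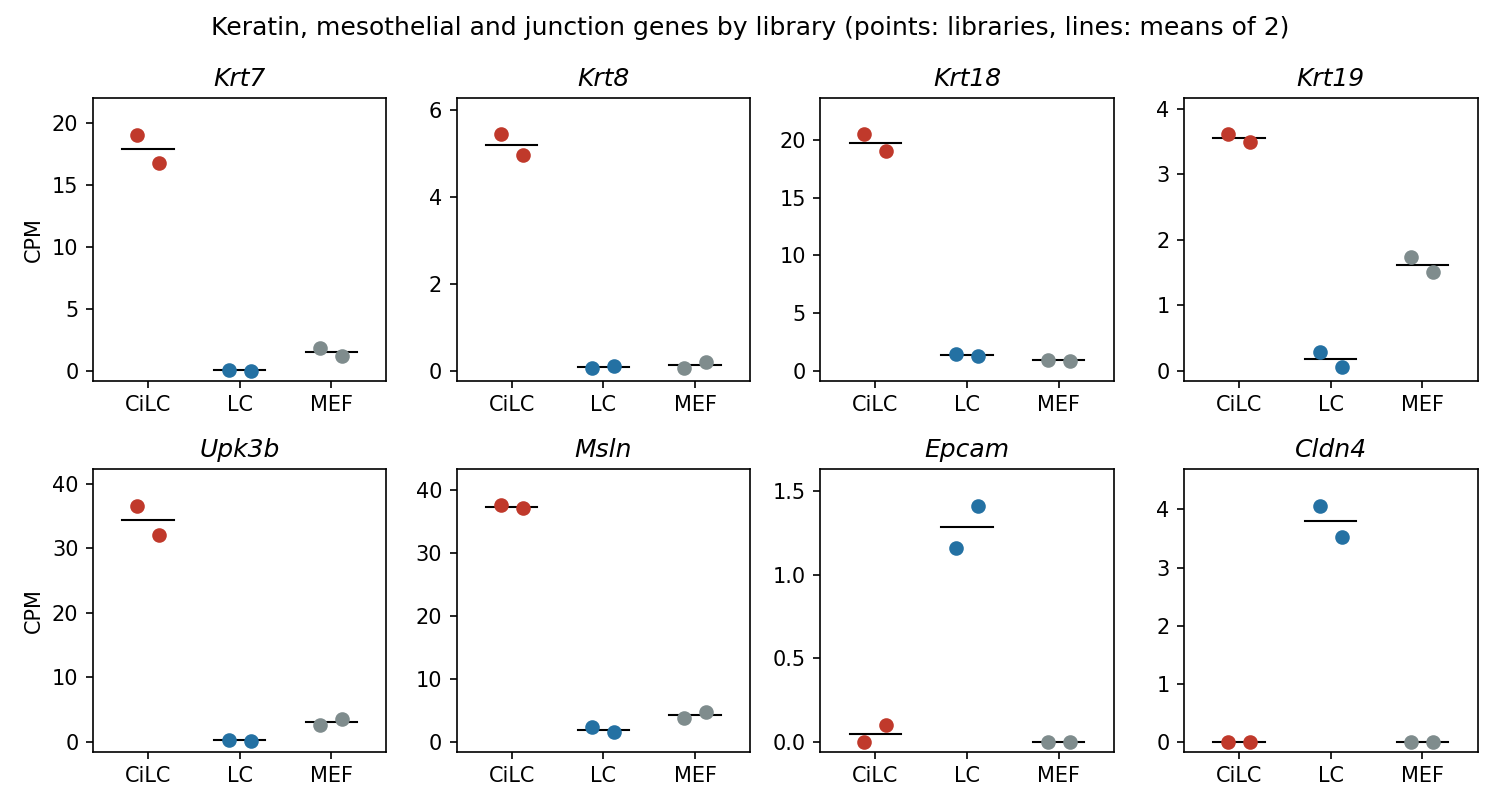
CPM of each of the 8 genes in every library, with points for libraries and a line for the group mean, for CiLC, LC and MEF. Krt7, Krt8, Krt18, Krt19, Upk3b and Msln are highest in both CiLC libraries, and Epcam and Cldn4 in both LC libraries.

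These 4 keratins summed to 48.6 and 44.3 CPM in CiLC, 1.86 and 1.47 CPM in LC, and 4.51 and 3.8 CPM in MEF. CiLC libraries thus hold the most reads of these 4 keratins by a wide margin, and LC the fewest. Keratin reads in what follows are those of these 4 genes. The type II genes Krt7 and Krt8 took 50.5% and 49.1% of the keratin reads in CiLC (exact 95% intervals 47.3% to 53.7% and 45.8% to 52.5%). In LC they took 6.25% and 8.0%, with intervals from 0.766% to 20.8% and from 0.984% to 26.0%. In MEF they took 41.9% and 37.0%, with intervals from 31.3% to 53.0% and from 26.0% to 49.1%. Intervals cover counting error only, and these shares are not corrected for gene length, so equal shares of reads are not equal amounts of protein or RNA. Of the reads of these 4 keratins, 32 and 25 in LC, nearly all in LC were type I, mostly Krt18. The shares hold for these 4 genes only, not for all type I and type II keratins. Outside them, the type II gene Krt80 had 24 and 31 reads in LC and 61 and 60 in MEF. The type I gene Krt23 had 63 and 67 reads in LC. Krt19 took 7.43% and 7.9% of the keratin reads in CiLC, 15.6% and 4.0% in LC, and 38.4% and 39.7% in MEF. Set against vimentin, the keratin reads came to 3.89% and 3.48% of the Vim reads in CiLC, 0.174% and 0.142% in LC, and 0.478% and 0.399% in MEF.

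**Figure D2:**
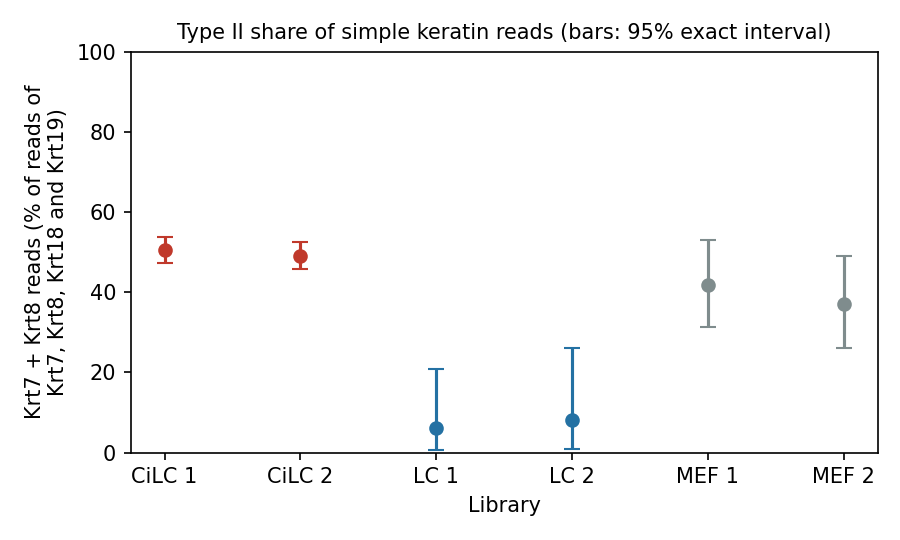
Reads of the type II genes Krt7 and Krt8 as a percentage of the reads of Krt7, Krt8, Krt18 and Krt19 in each CiLC, LC and MEF library, with exact 95% binomial intervals as bars. The share is 50.5% and 49.1% in CiLC, 6.25% and 8.0% in LC, and 41.9% and 37.0% in MEF.

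Upk3b (gene 100647), a surface protein first described in urothelium and widely used to mark mesothelium, had 719 and 634 reads in CiLC, 6 and 2 reads in LC, and 49 and 68 reads in MEF. The groups are well apart, with LC lowest. The mean was 34.4 ± 3.14 CPM in CiLC, 0.233 ± 0.163 CPM in LC and 3.05 ± 0.686 CPM in MEF. Upk3b was 11.2-fold higher in CiLC than in MEF (log2 fold change 3.49 ± 0.13 SE). Against LC it was 147-fold higher in CiLC (7.16 ± 0.22 SE, 8.11 without LC replicate 1 and 6.6 without LC replicate 2). LC was 13.1-fold lower than MEF (-3.67 ± 0.39 SE, -4.62 and -3.11 without the same libraries).

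Msln (gene 56047), which encodes mesothelin, a lipid-anchored surface protein, had 739 and 733 reads in CiLC, 42 and 26 reads in LC, and 72 and 92 reads in MEF. The order of the groups was that of Upk3b, with a smaller step between LC and MEF. The mean was 37.4 ± 0.308 CPM in CiLC, 1.98 ± 0.64 CPM in LC and 4.28 ± 0.717 CPM in MEF. Msln was 8.73-fold higher in CiLC than in MEF (log2 fold change 3.12 ± 0.12 SE) and 18.8-fold higher in CiLC than in LC (4.23 ± 0.14 SE). It was 2.16-fold lower in LC than in MEF (-1.11 ± 0.21 SE).

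Epcam (gene 17075), an adhesion protein of epithelial cell borders, had 0 and 2 reads in CiLC, 20 and 24 reads in LC, and 0 and 0 reads in MEF. Cldn4 (gene 12740), a claudin that narrows the path for ions through tight junctions, had 0 and 0 reads in CiLC, 70 and 60 reads in LC, and 0 and 0 reads in MEF. Both genes thus run against the other 6, with reads almost only in LC. Cldn4 averaged 3.8 ± 0.373 CPM in LC, and against a floor of 3 reads summed over a group it was at least 49.8-fold lower in CiLC than in LC and at least 48.5-fold higher in LC than in MEF. Epcam averaged 1.29 ± 0.179 CPM in LC. It was 25.3-fold lower in CiLC than in LC (counting interval 6.6 to 215) and at least 16.4-fold higher in LC than in MEF. The fitted log2 fold change of CiLC over LC, -4.49, was -3.57 without CiLC replicate 1 and -7.57 without CiLC replicate 2, which held both of its CiLC reads. No fold is given between CiLC and MEF, where both groups were at or under the floor for both genes.

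In the libraries' order, 6 of the 8 genes lay higher in both CiLC libraries than in both MEF libraries, 0 lay lower and 2 overlapped. Of all 14581 genes tested, 38.0% lay higher and 37.0% lay lower in this way. For CiLC against LC the 8 genes split into 6 higher and 2 lower, beside 42.8% and 41.8% of all genes. For LC against MEF they split into 3 higher, 4 lower and 1 overlapping, beside 41.8% and 42.0%. Since the genes were picked for these levels, nothing is read from the counts. The comparisons also share libraries and are not independent of each other. All 8 passed the filter on low counts, Krt8 only through CiLC, and Epcam and Cldn4 only through LC.

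The 8 genes fell into patterns that differ in detail. Likeness was measured as the root mean square distance between centred log2(CPM + 0.5) values over the 6 libraries, which share depth and processing. The added 0.5 shrinks differences at levels below it, as for Krt8, at 0.0879 CPM in LC and 0.13 CPM in MEF. Krt8 and Msln thus lay close, although their folds of CiLC over MEF were 39.9 and 8.73. Whether the order of the distances holds without it was not tested. The closest pair was Krt8 and Krt18, at 0.317, followed by Krt7 and Upk3b at 0.33 and Krt8 and Msln at 0.423. Krt7 and Krt8, the type II genes, were farther apart at 0.9, and Krt19 was at least 0.863 from every other gene of the 8. Epcam and Cldn4 lay 0.645 from each other and between 1.88 and 3.58 from the other 6.

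Of the 13924 genes that averaged 1 CPM or more in some group, the nearest to each gene are named as descriptions. The granin Scg2 (distance 0.182) and the adhesion protein gene Cadm2 (0.214) were nearest to Krt7. Scg2 had 20.2 ± 0.381 CPM in CiLC, 0.087 ± 0.123 CPM in LC and 1.78 ± 0.065 CPM in MEF. Krt8 was nearest to Npnt, an extracellular integrin ligand (0.13), and Podxl, a sialomucin of podocytes and other cell surfaces (0.139). Podxl had 9.53 ± 0.85 CPM in CiLC, 0.702 ± 0.173 CPM in LC and 0.601 ± 0.0339 CPM in MEF. Krt18 was nearest to the polysialyltransferase gene St8sia2 (0.0812) and the receptor gene Tnfrsf19 (0.172). St8sia2 had 38.4 ± 1.17 CPM in CiLC, 3.48 ± 0.0868 CPM in LC and 2.51 ± 0.0613 CPM in MEF. Krt19 was nearest to the ion channel gene Mcoln2 (0.123) and the adhesion gene Negr1 (0.137), both of which also kept a middle level in MEF, 12.4 ± 1.24 CPM for Mcoln2 and 1.8 ± 0.194 CPM for Negr1. Gpm6a, a membrane glycoprotein gene of neurons and mesothelium, was nearest to Upk3b (0.155), before Scg2 (0.216). The proton pump gene Atp12a (0.212) and the collagenase gene Mmp13 (0.236) were nearest to Msln. Mmp13 had 115 ± 2.37 CPM in CiLC, 7.3 ± 0.914 CPM in LC and 10.6 ± 0.238 CPM in MEF. The nearest to Epcam were Triobp (0.0639) and Aff2 (0.0729), and the nearest to Cldn4 were Cst12, a cystatin gene (0.0376), and Rras2, a Ras-family gene (0.075). The likeness to Epcam is loose: Triobp had 45 ± 3.34 CPM in CiLC, 155 ± 4.71 CPM in LC and 41.8 ± 1.05 CPM in MEF, well above 0 in every group, and the added 0.5 shrinks the differences of a gene as low as Epcam. Aff2, with 10.7 ± 0.62 CPM in CiLC, 34.1 ± 1.11 CPM in LC and 9.77 ± 0.32 CPM in MEF, and Rras2, with 25.0 ± 2.47 CPM in CiLC, 207 ± 16.8 CPM in LC and 23.0 ± 0.411 CPM in MEF, were likewise present in every group. Cst12 had 72 and 65 reads in LC and 0 in the other 4 libraries.

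Genes of the same cell types and structures outside the 8 were taken in 7 lists of 141 genes, of which 134 were in the files and 95 passed the filter. They were tested with edgeR's quasi-likelihood test and called at an adjusted p of 0.05 over all 14581 genes. The lists were drawn up with earlier results of these data known. At this threshold CiLC had 26.1% of all genes called higher and 25.5% called lower relative to MEF, so calls are common everywhere. The corresponding shares were 35.0% and 35.6% for CiLC against LC, and 35.7% and 35.0% for LC against MEF. The fitted spread between libraries was small, and the counts of each list are therefore also given at an assumed biological coefficient of variation of 0.4, a wider spread. There, 407 of all 14581 genes were called higher and 268 lower in CiLC against MEF. For CiLC against LC these counts were 937 and 1314, and for LC against MEF 1450 and 1058. The median log2 fold change of all genes was 0.01, 0.0 and -0.01 in these 3 comparisons.

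Other genes known from mesothelium were mostly higher in CiLC than in MEF. Of 19 tested, 17 rose, 1 fell and 1 was not called, and their median log2 fold change was 1.74. Efemp1, which encodes fibulin-3, an extracellular glycoprotein, rose 26.6-fold to 259.9 ± 10.3 CPM in CiLC, against 9.77 ± 0.566 CPM in MEF (adjusted p = 1.22e-23, edgeR). Pkhd1l1, a gene for a large surface receptor-like protein, rose 15.4-fold to 22.9 ± 1.67 CPM in CiLC, against 1.49 ± 0.177 CPM in MEF (adjusted p = 2.13e-16, edgeR). The uroplakin Upk1b had 494 and 448 reads in CiLC, 1 and 0 in LC, and 54 and 61 in MEF. Sulf1, which trims sulfates from heparan sulfate, fell 1.93-fold, with 188 ± 5.56 CPM in CiLC and 362 ± 1.1 CPM in MEF (adjusted p = 5.67e-14, edgeR). Nkain4 was the gene not called, at 5.23 ± 0.274 CPM in CiLC and 5.54 ± 0.12 CPM in MEF (adjusted p = 0.69, edgeR). At the wider spread 9 of the 19 rose and 0 fell, beside 407 and 268 of all 14581 genes. Efemp1 and Pkhd1l1 were among those that rose.

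Against LC, 13 of the 19 mesothelial genes were higher in CiLC and 6 were lower; the median log2 fold change was 1.7 (10 and 6 at the wider spread). Gpm6a had 543 and 544 reads in CiLC and 1 and 0 reads in LC, 945 times as many per scaled library (counting interval 169 to 37366). The ratio for Upk1b was 819, with an interval from 147 to 32386. The genes lower in CiLC were Wt1, Aldh1a2, Tcf21, Pdpn, Slpi and Hp. Hp, the acute phase protein haptoglobin, had 4.55 ± 0.263 CPM in CiLC and 521 ± 9.31 CPM in LC, 115-fold lower in CiLC (adjusted p = 1.1e-26, edgeR). Aldh1a2, which makes retinoic acid, had 9.85 ± 0.838 CPM in CiLC and 382 ± 3.96 CPM in LC, 38.8-fold lower in CiLC (adjusted p = 1.39e-25, edgeR).

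Between LC and MEF the mesothelial list divided into 9 genes higher and 10 lower in LC and had a median log2 fold change of -0.96 (7 and 8 at the wider spread). Tcf21, a transcription factor gene of stromal and mesothelial progenitors, was 380.1-fold higher, at 69.5 ± 4.59 CPM in LC and 0.183 ± 0.186 CPM in MEF (adjusted p = 1.7e-21, edgeR). Hp was 302-fold higher in LC than in MEF. Upk1b was 103-fold lower in LC (counting interval 18.1 to 4096), and Gpm6a was 87.6-fold lower, with an interval from 15.4 to 3496. By the order of the means, 8 of the 19 followed CiLC above MEF above LC, the order of Krt7, Krt8, Krt19, Upk3b and Msln, although LC and MEF overlapped for Krt8. A further 3 ran CiLC, LC, MEF, 6 ran LC, CiLC, MEF, and 2 ran MEF, CiLC, LC. Calb2, which encodes calretinin, a calcium-binding protein used to mark mesothelium, was not tested. It had 0 reads in CiLC and MEF and 1 read in each LC library. Upk3b, Msln and most of the list were thus high in CiLC, and this marker was at 0 there.

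**Figure D3:**
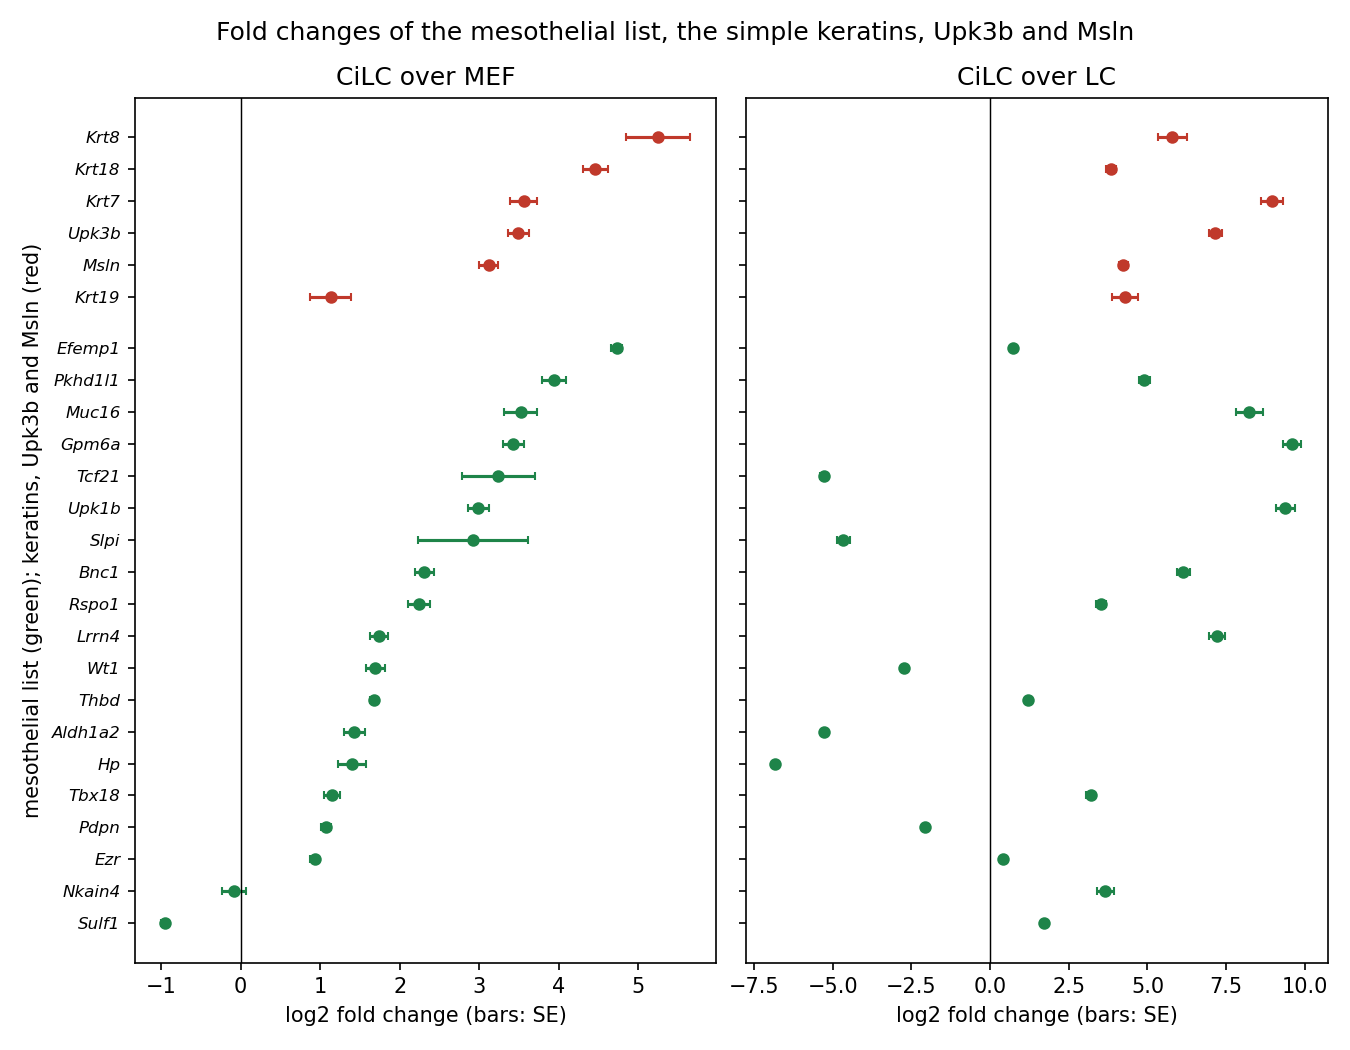
Log2 fold changes with SE bars of Krt7, Krt8, Krt18, Krt19, Upk3b and Msln (red) and of the 19 tested genes of the mesothelial list (green), in CiLC over MEF and in CiLC over LC. In CiLC over MEF 17 of the 19 were called higher, while in CiLC over LC Hp, Aldh1a2, Tcf21, Slpi, Wt1 and Pdpn lie left of 0.

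The listed keratins other than Krt7, Krt8, Krt18 and Krt19 were sparse in every culture. Krt23 in LC, at 3.8 ± 0.206 CPM, still took more reads than those 4 together, at 1.86 and 1.47 CPM. Krt80 in MEF took more reads than each of the 4 there. Neither comparison is corrected for gene length, so more reads need not mean more RNA. Of 20 listed, 14 were in the files and 4 were tested. In CiLC against MEF, 0 rose and 1 fell, with a median log2 fold change of -0.13: Krt80, a type II keratin of many epithelia, had 1.35 ± 0.327 CPM in CiLC and 3.16 ± 0.0528 CPM in MEF (adjusted p = 0.00042, edgeR). At the wider spread 0 were called in either direction. In CiLC against LC, 0 were higher and 2 lower, with a median of -0.83 (0 and 1 at the wider spread). The 2, Krt23 and Krt222, passed the filter only through LC, where they are high, so nothing is read from this direction. With only the CiLC and MEF libraries, 2 of the keratins were tested. The same limit holds for these 2 genes in LC against MEF. Krt23, a type I keratin, had 63 and 67 reads in LC and, like Cldn4, 0 in the other 4 libraries. It was at least 49.8-fold lower in CiLC than in LC and at least 48.5-fold higher in LC than in MEF. Krt222 had 0.457 ± 0.0283 CPM in CiLC and 1.22 ± 0.18 CPM in LC. Its call was lost with DESeq2 (adjusted p = 0.0533), and its estimated reads are not whole, so they may be shared with another gene. In LC against MEF, 2 were higher and 1 lower, with a median of 0.54, and 1 higher and 0 lower at the wider spread. Krt80 was 1.97-fold lower in LC. Krt222 was 2.28-fold higher in LC, a call that was lost with DESeq2 (adjusted p = 0.114), without MEF replicate 1 (0.0774, edgeR), without MEF replicate 2 (0.0531, edgeR) and without LC replicate 2 (0.0989, edgeR), which leaves 1 gene called higher each time.

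Other intermediate filament genes gave 3 higher, 6 lower and 1 not called of 10 tested in CiLC against MEF, with a median log2 fold change of -0.58. Vim was 1.33-fold higher, at 1260.2 ± 14.6 CPM in CiLC and 948 ± 5.18 CPM in MEF (adjusted p = 4.2e-08, edgeR). Synm, for synemin, was 2.52-fold higher. Nes, for nestin, a filament of progenitor cells, fell to 5.69 ± 0.373 CPM in CiLC, against 59.3 ± 3.54 CPM in MEF. Gfap, the astrocyte filament, was 9.25-fold lower in CiLC. Nes and Gfap were still called lower at the wider spread, and 0 genes were called higher. In CiLC against LC the list gave 4 higher, 3 lower and 3 not called, with a median of 0.11, and 0 higher and 3 lower at the wider spread. Synm (2.5-fold) and the lamin gene Lmna (2.02-fold) were higher in CiLC, and Nes (12.8-fold) and Sync (5.14-fold) were lower; the calls of Synm and Lmna ended at the wider spread. In LC against MEF it gave 4 higher, 4 lower and 2 not called, with a median of -0.25, and 0 higher and 1 lower at the wider spread, Gfap. Des, the muscle filament desmin, was 2.7-fold higher in LC, Sync was 1.6-fold higher, Lmna was 1.61-fold lower, and Gfap was 32.2-fold lower (counting interval 10.7 to 159). The call of Sync in LC against MEF was lost with DESeq2 (adjusted p = 0.115), without the filter on low counts (0.0598, edgeR), without MEF replicate 1 (0.214, edgeR) and without LC replicate 2 (0.273, edgeR).

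Apical junction genes moved both ways. In CiLC against MEF, 7 of 18 tested rose, 8 fell and 3 were not called, with a median log2 fold change of -0.07. Cldn15, a claudin that forms pores for cations, rose 8.48-fold to 8.87 ± 1.21 CPM in CiLC, against 1.04 ± 0.0791 CPM in MEF. Cxadr, a tight junction adhesion receptor, rose 5.31-fold. Cdh1, for E-cadherin, fell 10.4-fold, with 1.96 ± 0.318 CPM in CiLC and 20.4 ± 0.967 CPM in MEF (adjusted p = 1.46e-15, edgeR). Cdh3, for P-cadherin, fell 3.14-fold. At the wider spread 2 were higher and 1 lower, Cdh1. The CiLC libraries with the most Krt8 and Krt18 reads thus held fewer Cdh1 reads than MEF.

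In CiLC against LC, 6 of the 18 junction genes were higher, 10 lower and 2 not called, with a median of -0.23 (2 and 3 at the wider spread). Cldn1 was 13.1-fold and Cdh3 3.65-fold higher in CiLC. The tight junction adaptor gene Cgn was 17.4-fold lower, at 2.69 ± 0.725 CPM in CiLC and 46.8 ± 1.15 CPM in LC. Cldn23 had 0 reads in CiLC and was at least 55.6-fold lower than in LC. In LC against MEF, 10 were higher and 8 lower, with a median of 0.59 (7 and 4 at the wider spread). Cgn was 36.6-fold higher in LC and Cldn23 at least 54.1-fold higher, while Cdh3 was 11.5-fold and Cdh1 5.7-fold lower.

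Genes of desmosomes and hemidesmosomes, to which keratin filaments are anchored, gave 2 higher, 6 lower and 8 not called of 16 tested in CiLC against MEF. Their median log2 fold change was -0.37. The plakin Ppl, a cytolinker, rose 10.8-fold to 3.94 ± 0.117 CPM in CiLC, against 0.365 ± 0.146 CPM in MEF, and Dst, for dystonin, rose 1.36-fold. Itga6, a laminin receptor subunit, fell 5.79-fold, with 31.4 ± 2.19 CPM in CiLC and 182 ± 2.6 CPM in MEF, and the laminin gene Lama3 fell 3.2-fold. Of these, Ppl and Itga6 were still called at the wider spread. In CiLC against LC, 5 were higher, 7 lower and 4 not called, with a median of -0.27 (1 and 2 at the wider spread). Perp was 10.4-fold and Lama3 3.14-fold higher in CiLC. Eppk1 was 2.2-fold lower. The call of Eppk1 (adjusted p = 0.0275, edgeR) was lost with DESeq2 (0.134), without the filter on low counts (0.0519, edgeR), without CiLC replicate 2 (0.205, edgeR) and without LC replicate 1 (0.268, edgeR). Without LC replicate 1, 3 in place of 7 of this list were lower in CiLC, and with DESeq2 4 were. Upper quartile scaling gave 6 higher and 5 lower. In LC against MEF, 4 were higher, 7 lower and 5 not called, with a median of -0.11 (3 and 4 at the wider spread). Ppl was 19.8-fold higher in LC, and Perp 15.7-fold and Lama3 10-fold lower.

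Of 24 listed regulators and surface genes of epithelia, 12 were tested. In CiLC against MEF, 7 rose, 2 fell and 3 were not called, with a median log2 fold change of 0.67. Trp63, the p53-family factor of basal epithelia, had 8.43 ± 0.554 CPM in CiLC and 0.208 ± 0.221 CPM in MEF, 40.4-fold higher in CiLC (adjusted p = 5.62e-12, edgeR). Cd24a, a surface sialoglycoprotein gene, was 4.88-fold higher. The membrane protease gene St14 was 2.24-fold and the syndecan gene Sdc1 1.27-fold lower. At the wider spread 2 were higher, Trp63 and Cd24a, and 0 lower. Grhl2 and Ap1m2 had 0 reads in both groups and were not tested. In CiLC against LC, 3 were higher, 6 lower and 3 not called, with a median of -0.66 (1 and 3 at the wider spread). The Trp63 ratio was 144 in favour of CiLC (counting interval 39.6 to 1197), and Klf5 was 1.94-fold higher, while Ehf (8.8-fold) and Map7 (7.18-fold) were lower. In LC against MEF, 7 were higher, 2 lower and 3 not called, with a median of 1.07 (6 and 0 at the wider spread). Map7 was 12.3-fold higher and the Ehf ratio was 45.9, with an interval from 7.78 to 1855, while St14 was 2.46-fold and Klf4 1.37-fold lower in LC.

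Mesenchymal regulators moved both ways. Of 16 tested in CiLC against MEF, 5 rose, 8 fell and 3 were not called, with a median log2 fold change of -0.12. The repressor gene Snai1 was 1.54-fold higher, at 76.9 ± 2.4 CPM in CiLC and 49.8 ± 4.29 CPM in MEF (adjusted p = 5.48e-09, edgeR), and Prrx2 was 1.34-fold higher. Cdh2, for N-cadherin, was 2.43-fold and Foxc2 2.39-fold lower in CiLC. At the wider spread 0 were called in either direction. In CiLC against LC, 12 were higher and 4 lower, with a median of 1.08 (5 and 1 at the wider spread, and 2 lower with upper quartile scaling). Cdh11 was 8.57-fold higher, at 588 ± 10.2 CPM in CiLC and 68.6 ± 2.56 CPM in LC, and Foxc1 7.82-fold higher. Cdh2 was 6.2-fold and Zeb1 2.02-fold lower in CiLC. In LC against MEF, 4 were higher and 12 lower, with a median of -1.28, and 0 higher and 5 lower at the wider spread, which ended the calls of Cdh2 and Zeb1. Cdh2 was 2.56-fold and Zeb1 1.69-fold higher in LC, and Cdh11 13.8-fold and Foxc1 13.7-fold lower.

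**Figure D4:**
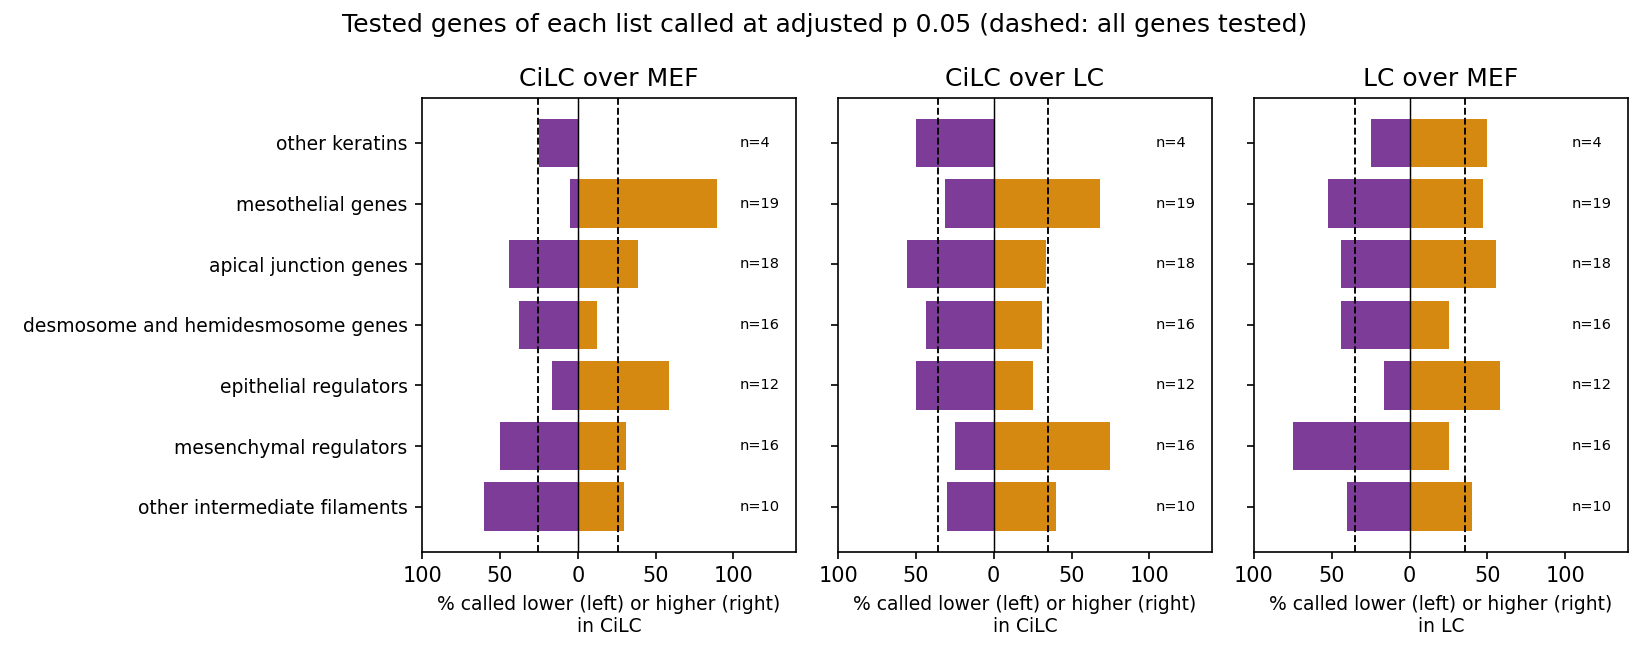
Percentage of the tested genes of each list called higher (right) or lower (left) at an adjusted p of 0.05 in CiLC over MEF, CiLC over LC and LC over MEF, with the share of all genes tested as dashed lines and the number tested as n. In CiLC over MEF the mesothelial list reaches 89.5% called higher, beside 26.1% of all genes.

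Markers of other epithelia and of the labelled cell types were read beside these results. Urothelial markers, 3 of 4 in the files, summed to 24.7 to 26.9 CPM in CiLC, 0.883 to 0.928 CPM in LC and 3.96 to 4.09 CPM in MEF. Most of the CiLC and MEF sums was Upk1b, which the mesothelial list also holds, and most of the LC sum was Upk1a, with 15 reads in each LC library. Upk2 had 1 read in each CiLC library and 0 elsewhere. Keratinocyte markers, 7 of 7 in the files, summed to 10.1 to 11 CPM in CiLC, 1.35 to 1.45 CPM in LC and 1.87 to 1.94 CPM in MEF. Trp63 made up most of the CiLC sum, and Krt5 and Krt14, the defining pair of basal keratinocytes, had at most 2 reads in any library. Markers of duct and kidney epithelium, 5 of 8 in the files, summed to 26.9 to 27.5 CPM in CiLC, 25.0 to 25.8 CPM in LC and 18.3 to 18.8 CPM in MEF. Within them Aqp2, the water channel of collecting ducts and some reproductive ducts, had 337 and 340 reads in LC and 0 in the other 4 libraries, so LC had the most reads of Aqp2, Epcam and Cldn4. The other tested duct markers, transcription factor genes, were lower in LC than in MEF: Pax2 by 7.6-fold, Pax8 by 6.59-fold and Emx2 by 3.15-fold, with adjusted p of 0.00054, 1.55e-05 and 7.14e-12 (edgeR). The part of other epithelial cells in the results was not tested.

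Endoderm markers, 5 of 8 in the files, summed to 1.25 to 1.53 CPM in CiLC, 0.469 to 0.67 CPM in LC and 0.404 to 0.597 CPM in MEF. Trophoblast markers, 4 of 8 in the files, summed to 0.913 to 1.14 CPM in CiLC, 1.1 to 1.63 CPM in LC and 0.855 to 1.48 CPM in MEF. Sertoli cell markers, all 8 in the files, summed to 19.0 to 19.7 CPM in CiLC, 183 to 186 CPM in LC and 12.2 to 12.4 CPM in MEF. Most of the LC sum was Cldn11, at 118 ± 2.46 CPM, and Sox9, at 46.3 ± 1.69 CPM. Dhh had 13.1 ± 1.6 CPM in LC and Amh 1.58 ± 0.0168 CPM. Fshr had 10 and 2 reads in LC, and Rhox5 had 0 and 2 reads. Macrophage markers, all 6 in the files, summed to 2426 to 2452 CPM in CiLC, 981 to 993 CPM in LC and 3486 to 3518 CPM in MEF. Leydig cell markers, all 7 in the files, summed to 75.5 to 78.6 CPM in CiLC, 914 to 945 CPM in LC and 7.39 to 9.25 CPM in MEF. Star, the cholesterol carrier of steroid-making cells, had 58.0 ± 0.61 CPM in CiLC, 182 ± 2.93 CPM in LC and 5.28 ± 0.269 CPM in MEF. Cyp17a1, the steroid hydroxylase that defines androgen-making Leydig cells, had at most 1 read in any library, LC included, and the hormone receptor Lhcgr had 3 and 2 reads in LC. Cyp17a1 and Lhcgr are thus nearly absent from the libraries labelled as Leydig cells. Apart from Cyp17a1, every marker of the list had its highest mean there, Lhcgr at only 0.146 ± 0.0398 CPM and Hsd3b6 at 0.329 ± 0.168 CPM. Cyp11a1, which made up most of the LC sum, had 12.3 ± 0.677 CPM in CiLC, 705 ± 17.8 CPM in LC and 1.33 ± 0.117 CPM in MEF. Hsd3b1 had 6.12 ± 0.338 CPM in CiLC, 35.3 ± 1.64 CPM in LC and 0.698 ± 0.274 CPM in MEF. Insl3 had 18.51 and 3.44 estimated reads in CiLC, 104.12 and 120 in LC, and 0 and 37.01 in MEF, so its reads may be shared with another gene, and the libraries disagree within CiLC and within MEF. Fibroblast markers, all 6 in the files, summed to 29745 to 30003 CPM in CiLC, 27139 to 27846 CPM in LC and 27908 to 28781 CPM in MEF. Most of each sum was Col1a1, Col1a2 and Col3a1. Thy1, of the same list, had 817 ± 30.3 CPM in CiLC, 5.73 ± 0.226 CPM in LC and 395 ± 0.825 CPM in MEF. In LC against MEF, Thy1, Col1a1 and Col1a2 were lower and Col3a1, Pdgfra and Dcn were higher. The collagen gene Col1a1 had 7329 ± 87.1 CPM in CiLC, 8982 ± 328 CPM in LC and 13372 ± 378 CPM in MEF, and the receptor gene Pdgfra had 943 ± 27.6 CPM in CiLC, 1787 ± 38.1 CPM in LC and 303 ± 15.3 CPM in MEF. How much these cell types take part in the keratin and mesothelial values was not tested.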

How the data were processed

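Estimated counts of reads per gene (expected counts, not scaled for library size) were deposited by the authors, who aligned reads with HISAT to mm9, per the submitters' processing notes. Aligner version, counting tool, annotation and strandedness are unstated (not given in the sources used here), so reads of overlapping, antisense or near-identical genes may be shared; 32.36% to 32.83% of values per library were not whole, but all 48 member values were. Libraries held 18.4 to 18.9 M reads and 16441 to 16631 genes above 0. Symbols came from an NCBI RefSeq table (GRCm38.p6) for 18179 of 18305 gene numbers; the 126 others held 0.164% to 0.259% of reads. Replicate libraries differed beyond sampling noise (chi-square per degree of freedom 1.8 in CiLC, 2.94 in LC and 2.77 in MEF, over genes with at least 20 reads).

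Rounded counts went into edgeR 4.0.16 (R 4.3.3, limma 3.58.1): filterByExpr with a minimum count of 10 and total of 15, which left 14581 genes and removed 3724, TMM scaling, all 6 libraries in a quasi-likelihood fit by group, two-sided tests, Benjamini-Hochberg adjustment and a prior count of 0.125. Spread was low, at a common biological coefficient of variation of 3.16%. The fit was tested on simulated data. A group at 0 was set to a floor of 3 reads summed over its libraries; with 1 to 3 reads, the ratio carries an exact 95% binomial interval. Both cover counting error only. CPM are means ± SD of 2 libraries. The SE of a log2 fold change is its absolute value over the square root of the test's F statistic, so it rests on the fitted spread.

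The 8 genes, the lists and the tests were chosen with earlier results of these data known. Every one of the 8 is named. From each list and comparison, up to 2 called genes with the largest log2 fold change in each direction are named, with a mean of at least 1 CPM in either group. The rule also names Cyp17a1, Lhcgr, Insl3, Star, Col1a1 and Pdgfra, and the 2 genes nearest in pattern to each of the 8. A gene that the rule also names is not reported here. Further genes (Calb2, Nkain4, Upk1b in CiLC against MEF, Aqp2, Pax2, Pax8, Emx2, Upk1a, Upk2, Krt5, Krt14, Grhl2 and Ap1m2, and the list of mesothelial genes lower in CiLC than in LC) were named after their values were seen. So were the markers Cyp11a1, Hsd3b1, Hsd3b6, Col1a2, Col3a1, Thy1, Dcn, Cldn11, Sox9, Dhh, Amh, Fshr and Rhox5. Alternatives were DESeq2 1.42.0, upper quartile scaling, total reads, no filter, the 4 libraries compared, a replicate block, each library left out, and an assumed biological coefficient of variation of 0.1 or 0.4. Replicate numbers shared between groups paired no samples by the labels.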

Additional observations from a re-analysis of the deposited data

How the results depend on the processing

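The count of genes called depended most on the assumed spread. With a biological coefficient of variation of 0.1, CiLC against MEF gave 4205 calls in place of 7529. With 0.4 it gave 675 (407 higher and 268 lower, in place of 3808 and 3721), CiLC against LC 2251 in place of 10295, and LC against MEF 2508 in place of 10311. Of 123 calls on named genes, 39 were lost at 0.4 and 3 at 0.1 (Sdc1 in CiLC against MEF, Col1a1 in CiLC against LC and St8sia2 in LC against MEF), and 7 with DESeq2. Of the listed genes, 18, 38 and 46 were called at 0.4 in these 3 comparisons, in place of 73, 81 and 84. Every other alternative kept these counts within 1.5 times. Leaving out each library in turn gave 6127 to 7437, 9333 to 10488 and 9411 to 10314 genes, and 67 to 72, 75 to 81 and 81 to 86 listed genes. Upper quartile scaling moved the median log2 fold change of all genes to 0.09 in CiLC against LC and -0.108 in LC against MEF.

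A fit with a replicate block called 7505, 10290 and 10294 genes and 71, 81 and 84 listed genes. Deviations of same-numbered libraries correlated at 0.104 between CiLC and MEF, -0.085 between CiLC and LC and -0.008 between LC and MEF. With a single difference per group, these values cannot tell whether same-numbered libraries shared a batch.

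Few reads limit the fold sizes of the 8 genes. The log2 fold change of Krt7 in CiLC over LC ranged from 8.12 to 11.41 over the alternatives and that in LC over MEF from -7.85 to -4.56, both set by which LC library was left out. For Epcam in CiLC over LC it ranged from -7.57 to -3.57, set by the CiLC library left out. The sign of Krt8 in LC over MEF changed to 0.67 without MEF replicate 2. In the other comparisons with a fold none of the 8 changed sign. Insl3 in CiLC over MEF, at -0.78, ranged from -2.62 without CiLC replicate 1 to 6.39 without MEF replicate 2, and was 0.00 without CiLC replicate 2 and -1.78 without MEF replicate 1. In LC over MEF, Npnt was -0.00 with upper quartile scaling and Podxl ranged from -0.05 without LC replicate 2 to 0.45 without LC replicate 1. The cause of these moves was not tested beyond the reads that each library holds.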
